A study of Mus musculus with 6 samples.

Results

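The TNF receptor superfamily genes of Tregs were examined here as 9 genes: *Tnfrsf4* (OX40), *Tnfrsf18* (GITR), *Tnfrsf9* (CD137), *Tnfrsf8* (CD30), *Tnfrsf1b* (TNFR2), *Tnfrsf1a* (TNFR1), *Tnfrsf25* (DR3), *Cd27* and *Fas*. Their members are the accessible regions that overlap each gene body, extended by 10 kb on each side. The rule used no measured value, but the genes were picked with earlier results of these data known. This gave 114 of 94499 regions in the list of Foxp3creCREBfl/fl Tregs and 117 of 100771 regions in the list of CREBfl/fl Tregs. Overlapping regions were joined across the lists into 120 of 104845 joined regions.

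Splenic Tregs from C57BL/6 mice of 6 to 12 weeks were studied by ATAC-seq, in which a transposase cuts open DNA and sites with many fragments are called as peaks. One group was Foxp3creCREBfl/fl, in which a Cre recombinase expressed from the *Foxp3* locus deletes floxed CREB in Foxp3+ cells. The other group was CREBfl/fl, which carries the floxed alleles without Cre, so that the presence of Cre and the loss of CREB cannot be told apart. The labels call the groups Foxp3_KO and WT, give 3 libraries for each and also state sequencing in duplicates, while 1 peak list per group was analysed. No test across mice was therefore possible, and every interval below covers counting error only.

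Receptors of this family are bound by trimeric ligands of the TNF family and recruit TRAF adaptors, which activate NF-kappa-B. TNFR1, DR3 and Fas also carry a cytoplasmic death domain, through which Fas recruits FADD and caspase-8. Tregs are known for high levels of GITR, OX40 and TNFR2, and costimulation through several of these receptors supports their expansion. CREB binds the palindromic CRE (TGACGTCA) and the shorter half-site TGACG.

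The results turn on a few regions, and 7 of them are shown as 201 bases of the plus strand around the summit, the position of the highest signal. Sequences are from the RefSeq genome, build GRCm38.p6. The first 4 are regions inside *Tnfrsf9*, *Tnfrsf1a* and *Tnfrsf1b* that were lower in Foxp3creCREBfl/fl Tregs and hold a half-site, with TGACG or its reverse complement CGTCA in capitals. The last line of these 4 also has the RUNX word TGTGGTT in capitals, read on the other strand.
*Tnfrsf9* chr4:150915291-150915491: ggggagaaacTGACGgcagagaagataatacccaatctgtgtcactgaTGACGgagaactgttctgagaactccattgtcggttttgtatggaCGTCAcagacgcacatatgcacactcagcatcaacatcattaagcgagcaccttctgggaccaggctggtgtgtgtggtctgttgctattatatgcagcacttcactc
*Tnfrsf9* chr4:150924472-150924672: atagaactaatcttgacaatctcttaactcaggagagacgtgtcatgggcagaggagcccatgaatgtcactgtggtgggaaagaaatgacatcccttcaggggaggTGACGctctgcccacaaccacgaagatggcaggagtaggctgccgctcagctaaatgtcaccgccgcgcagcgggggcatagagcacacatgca
*Tnfrsf1a* chr6:125351377-125351577: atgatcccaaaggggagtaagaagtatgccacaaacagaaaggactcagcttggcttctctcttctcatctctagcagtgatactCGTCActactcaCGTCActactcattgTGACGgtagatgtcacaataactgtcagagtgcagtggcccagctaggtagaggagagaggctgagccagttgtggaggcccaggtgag
*Tnfrsf1b* chr4:145236113-145236313: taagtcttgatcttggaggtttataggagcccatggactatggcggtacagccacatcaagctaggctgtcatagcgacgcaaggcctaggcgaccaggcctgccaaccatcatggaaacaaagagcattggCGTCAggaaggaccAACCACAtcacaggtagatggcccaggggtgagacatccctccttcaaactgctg

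The next 3 are the regions with the lowest ratios of all, in *Tnfrsf1b* and *Tnfrsf8*, and the region with the highest ratio, upstream of *Cd27*. None of these 3 windows holds TGACG. An AP-1 word, TGAGTCA or TGACTCA, is in capitals in the first.
*Tnfrsf1b* chr4:145246158-145246358: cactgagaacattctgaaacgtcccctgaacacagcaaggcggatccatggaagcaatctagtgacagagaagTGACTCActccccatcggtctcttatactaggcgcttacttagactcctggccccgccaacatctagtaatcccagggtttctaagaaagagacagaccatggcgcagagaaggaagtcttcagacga
*Tnfrsf8* chr4:145283529-145283729: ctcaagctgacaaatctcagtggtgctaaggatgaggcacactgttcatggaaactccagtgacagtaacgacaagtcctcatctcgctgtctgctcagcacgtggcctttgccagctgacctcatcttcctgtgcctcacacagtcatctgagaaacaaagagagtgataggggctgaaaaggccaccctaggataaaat
*Cd27* chr6:125238443-125238643: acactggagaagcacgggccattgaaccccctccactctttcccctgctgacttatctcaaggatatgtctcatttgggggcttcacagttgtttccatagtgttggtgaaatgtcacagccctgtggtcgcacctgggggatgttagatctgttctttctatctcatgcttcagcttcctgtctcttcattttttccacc

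A few measures are used. The pileup is the number of fragments over the summit, recovered from the deposited values. Since the CREBfl/fl list was 1.66 times as deep by its genome-wide background (5.09 fragments in the Foxp3creCREBfl/fl list and 8.44 in the CREBfl/fl list), a level is given as pileup over background. The relative log2 ratio compares these levels, Foxp3creCREBfl/fl over CREBfl/fl, after subtracting the median of 0.15 over 82006 shared regions, and has an exact binomial 95% interval. A region is called lower or higher when the ratio differs from 0 by at least 2-fold and 5 counting SDs. In bulk cells, a change in each cell and a change in the mix of cells cannot be told apart.

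All 9 genes had an accessible promoter in both groups. The main promoter regions, within 1 kb of a coding start site, had levels of 46 to 112 times background in Foxp3creCREBfl/fl Tregs and of 44.3 to 104 times background in CREBfl/fl Tregs. This lies within the span of 8 Treg and T cell marker promoters, 30.7 to 121 in Foxp3creCREBfl/fl Tregs and 38.2 to 116 in CREBfl/fl Tregs. Summed over these 8 markers, the level was 568 in Foxp3creCREBfl/fl Tregs and 581 in CREBfl/fl Tregs. As relative log2 ratios, a measure defined above, all 8 lay below 0, between -0.47 at *Ikzf4* and -0.06 at *Cd4*, and 3 had an interval below 0. Without the subtraction of the median 5 of the 8 lay below 0, and 1 had an interval there. The part of this in the results below was not tested. Promoters of other cell types were mostly lower. Of the B cell markers reported, 4 had a region, at 7.47 to 26.1 in Foxp3creCREBfl/fl Tregs and 3.08 to 19.8 in CREBfl/fl Tregs, while *Cd79a* had none. Of these 4, only *Ms4a1* had an interval of the relative log2 ratio that excluded 0. Its ratio was 1.13 (0.37 to 1.91), from 38 fragments in Foxp3creCREBfl/fl Tregs, against 26 in CREBfl/fl Tregs. Summed over the list, B cell markers reached 68.2 in Foxp3creCREBfl/fl Tregs and 53.5 in CREBfl/fl Tregs, and the part of such cells in the results below was not tested. Of 6 myeloid markers 2 had a region, summing to 22.6 in Foxp3creCREBfl/fl and 23.8 in CREBfl/fl Tregs. Of 6 CD8 and NK cell markers 4 had one, summing to 42.3 in Foxp3creCREBfl/fl and 44 in CREBfl/fl Tregs. Of 5 erythroid markers 4 had one, summing to 134 in Foxp3creCREBfl/fl and 137 in CREBfl/fl Tregs. Of these 4, only *Gata1* had an interval of the relative log2 ratio that excluded 0, at -0.63 (-0.98 to -0.29). The erythroid *Klf1* was open at 75.3 in Foxp3creCREBfl/fl Tregs and 66.8 in CREBfl/fl Tregs, while *Hbb-bt* had no region. The *Creb1* promoter was open in both, at 149 in Foxp3creCREBfl/fl Tregs and 126 in CREBfl/fl Tregs. It checks nothing about the deletion, since the deleted part is not given in the sources used here.

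*Tnfrsf9* had the strongest main promoter of the 9, with 568 fragments in the Foxp3creCREBfl/fl list, against 879 in the CREBfl/fl list, or 112 and 104 times background. The same region lies within 1 kb of a coding start site of *Park7*, so its level cannot be assigned to *Tnfrsf9* alone. *Tnfrsf4* followed with 471 fragments, against 743 in CREBfl/fl Tregs. In both lists the exact interval of the ratio between these neighbours in the order excluded 1 (1.21, 1.07 to 1.37, in Foxp3creCREBfl/fl and 1.18, 1.07 to 1.31, in CREBfl/fl), and *Tnfrsf4* stood above the next gene in the same way. Among the other 7, no gene differed from the next in the order beyond counting error, but the ends did. *Fas* was 1.51 times (1.28 to 1.79) as high as *Tnfrsf8* in Foxp3creCREBfl/fl Tregs, and *Tnfrsf1b* 1.32 times (1.15 to 1.51) as high as *Tnfrsf8* in CREBfl/fl Tregs. *Tnfrsf8* was at the low end in both lists (234 fragments in Foxp3creCREBfl/fl Tregs, against 374 in CREBfl/fl Tregs).

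**Figure D1:**
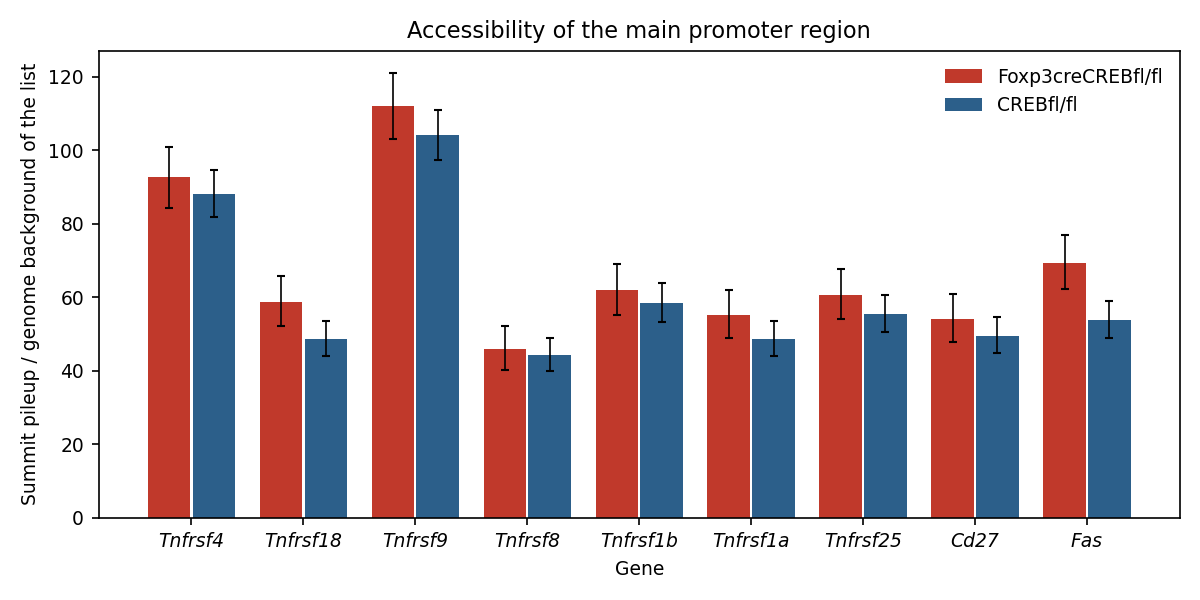
Level of the main promoter region of each gene, as summit pileup over the genome background of its list, in Foxp3creCREBfl/fl (red) and CREBfl/fl (blue) Tregs. Bars are 1 list each and error bars are exact Poisson 95% intervals for counting error. *Tnfrsf9* and *Tnfrsf4* stand above the other 7 genes in both lists, and only at *Fas* does the Foxp3creCREBfl/fl level (69.4, against 53.9) exceed its partner with an interval of the relative ratio above 0. Such an interval was found for 6.2% of all shared promoter regions of the series. The *Tnfrsf9* region is also within 1 kb of a coding start site of *Park7*.

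Between the groups, 8 of the 9 main promoters, the region of highest pileup within 1 kb of a coding start site of each gene, had an interval that includes 0, and their relative log2 ratios ran between -0.10 at *Tnfrsf8* and 0.13 at *Tnfrsf18*. *Fas*, the death receptor, was the exception, as 1 of 9 with an interval above 0. Among 17911 shared promoter regions of the series, 6.2% had an interval above 0 and 6.64% below. The *Fas* promoter (chr19:34290079-34290891) had 353 fragments in Foxp3creCREBfl/fl Tregs, against 455 in CREBfl/fl Tregs, and a ratio of 0.21 (0.01 to 0.42). Set over the local background behind the same peak, this fell to 0.11 with an interval that includes 0. With that scaling the *Tnfrsf4* promoter had -0.21 (-0.38 to -0.04), and without the subtraction of the median the *Tnfrsf18* promoter had 0.28 (0.06 to 0.49).

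Several genes have more than 1 region within 1 kb of an annotated coding start site. Counting all of these, 17 shared promoter regions had 4 intervals below 0 (23.5%) and 1 above (5.88%), against 6.64% below and 6.2% above among 17911 shared promoter regions of the series. The 4 are 3 regions of *Tnfrsf9* and 1 of *Tnfrsf1b*, described below, which lie in introns by the position of their summit. Of these 4, 3 stayed below 0 under every alternative in which they could be compared.

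Over the windows as a whole, 106 of the 120 joined regions were shared. Only 3 were found in the Foxp3creCREBfl/fl list alone, or 2.63% of its 114 (0.90 to 7.45), where 6.61% of all its regions were. In the CREBfl/fl list alone there were 11, or 9.4% of its 117 (5.33 to 16.1), where 16.4% of all its regions were. None of the 106 shared regions was past the rule of 2-fold and 5 SDs, which 0.118% of all shared regions passed as lower and 0.0829% as higher. The interval lay below 0 for 16 of the 106 (15.1%), against 7.88% of all shared regions. It lay above 0 for 4 (3.77%), against 5.47%.

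Counting intervals are narrower where the signal is stronger, and the member regions were stronger than most. Their median pileup was 122.5 in the Foxp3creCREBfl/fl list and 205 in the CREBfl/fl list, while all shared regions had medians of 77 in Foxp3creCREBfl/fl and 116 in CREBfl/fl. Among the 26461 shared regions with a CREBfl/fl pileup at or above that of the median member region, the interval lay below 0 for 13.9% and above 0 for 5.88%. The members' share of 15.1% below 0 counts all 106, also those weaker than that median, so the 2 shares are not like for like. Of the 16 members below 0, only those with 124, 137 and 169 fragments in CREBfl/fl Tregs were weaker than it. The share below 0 among members at or above that median is therefore higher than 15.1%. The members' median ratio was -0.07 (SD of the members 0.25, n = 106), against 0 over all shared regions (SD 0.30) and -0.02 over those of that strength.

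These counts depend on the scale. Without the subtraction of the median, 5 member regions had an interval below 0 and 14 above it, where 2.89% and 19% of all shared regions did, and the median ratio was 0.08. Set over the background behind the same peak, 8 lay below and 2 above, where 4.31% and 3.47% of all did, and the median was -0.01. Of the 20 regions with an interval on one side of 0, 6 stayed on that side under every alternative in which they could be compared. These are 2 in *Tnfrsf9* and 1 each in *Tnfrsf8* and *Tnfrsf1b* with an interval below 0, and 1 each at *Tnfrsf18* and *Cd27* with an interval above 0.

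**Figure D2:**
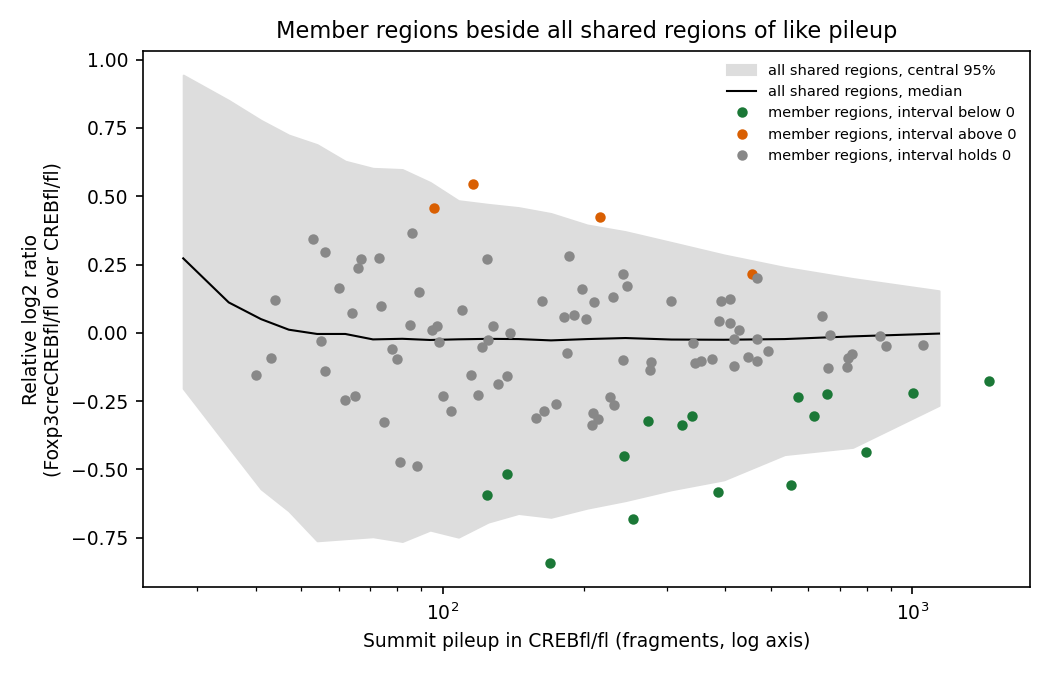
Relative log2 ratio (Foxp3creCREBfl/fl over CREBfl/fl) of the 106 shared member regions against the summit pileup in CREBfl/fl on a log axis, over the median (line) and central 95% (grey) of all shared regions in 20 bins of pileup. Most members lie in the grey band. Those below it include regions of *Tnfrsf1b*, *Tnfrsf8* and *Tnfrsf9*, and those above it are the regions at *Cd27* (0.54) and *Tnfrsf18* (0.43).

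*Tnfrsf9* encodes CD137, a costimulatory receptor induced by T cell activation. Its window (chr4, gene body 150914562 to 150946102, plus strand) held 14 joined regions. Of the 13 shared ones, 12 (92.3%) had a ratio below 0, where 50% of all shared regions did. Their median was -0.13, with an SD of 0.20. Without the subtraction of the median over all shared regions, the region at this -0.13 had 0.02. The regions within 1 Mb but outside the windows had a median of -0.04 (n = 129). The main promoter region at 150914186 to 150914876 had a ratio of -0.05 (-0.20 to 0.10). Directly behind it, a region of the first intron (150915081 to 150915798, 829 bp from the start) had 251 fragments in Foxp3creCREBfl/fl Tregs, against 553 in CREBfl/fl Tregs, or 49.3 and 65.5 times background. Its ratio was -0.56 (-0.78 to -0.34), and the 3 half-sites printed above lie in its window. This region also reaches to within 1 kb of a coding start site of *Tnfrsf9* and of one of *Park7*, as does the main promoter region. Its interval and that of the main promoter do not overlap.

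A second pair of intronic regions lay about 10 kb into *Tnfrsf9*, within 1 kb of further coding start sites, where an intron of *Camta1* overlaps. The region at 150924112 to 150924821 had 172 fragments, against 385 in CREBfl/fl Tregs, and a ratio of -0.58 (-0.85 to -0.32). The adjoining region at 150924867 to 150925446 had 171, against 323, and a ratio of -0.34 (-0.61 to -0.06), which lost its side of 0 on both other scales. The strongest region besides the promoter lay upstream at *Park7* (150909577 to 150910200), with 565 fragments, against 852 in CREBfl/fl Tregs, and a ratio of -0.01. A weak region at 150927215 to 150927309 was in the Foxp3creCREBfl/fl list alone, with 80 fragments and 2.73 times its local background.

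*Tnfrsf1b* encodes TNFR2, the TNF receptor that is prominent on Tregs. Its window (chr4, gene body 145213463 to 145246870, minus strand) held 16 regions, all shared, and 5 of them had an interval below 0, the most of the 9 genes. This is 31.2%, against 7.88% of all shared regions and 13.9% of those at or above the members' median pileup. Within 1 Mb but outside the windows, 11.9% of 42 shared regions had such an interval. The main promoter at 145246406 to 145247169 had 315 fragments in Foxp3creCREBfl/fl Tregs and 493 in CREBfl/fl Tregs, with a ratio of -0.07 (-0.27 to 0.14). Next to it inside the first intron, 612 bp from the start and so also within 1 kb of it, a narrow region at 145246186 to 145246350 had 63 fragments, against 169 in CREBfl/fl Tregs. Its ratio of -0.84 (-1.28 to -0.42) was the lowest of all 106, and at 12.4 times background in Foxp3creCREBfl/fl and 20 times in CREBfl/fl Tregs it was one of the weaker regions of the gene.

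Deeper in the *Tnfrsf1b* introns, the region at 145235897 to 145236512 was among the strong ones, with 393 fragments in Foxp3creCREBfl/fl Tregs, against 796 in CREBfl/fl Tregs. Its ratio was -0.44 (-0.62 to -0.26), and -0.12 (-0.30 to 0.05) over the background behind the same peak. The weak region at 145242888 to 145243072 had 64 fragments, against 137, and a ratio of -0.52 (-0.97 to -0.08). At 145240736 to 145241293 the ratio was -0.22 (-0.41 to -0.04), which changed sign to 0.15 over the local background, and at 145221168 to 145222371 it was -0.23 (-0.44 to -0.04). These 3 lost their side of 0 on both other scales. The strongest regions of the Foxp3creCREBfl/fl list lay upstream of the gene, at 145254374 to 145255033 (684 fragments, against 1054 in CREBfl/fl Tregs) and at 145250054 to 145250339 (447, against 641), and had ratios of -0.04 and 0.06.

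**Figure D3:**
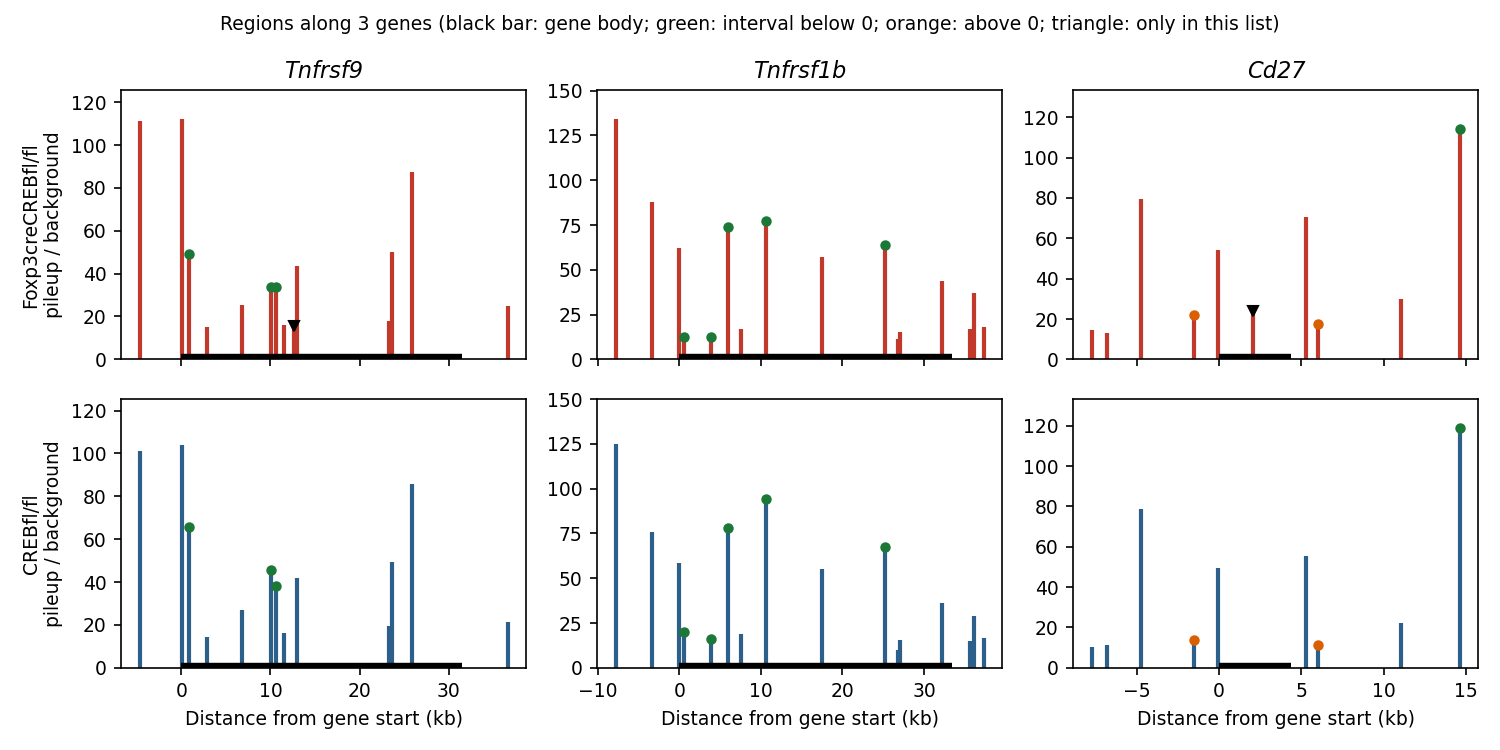
Levels of the regions along *Tnfrsf9*, *Tnfrsf1b* and *Cd27*, as pileup over background against the distance from the gene start in kb along the direction of transcription, in Foxp3creCREBfl/fl (top, red) and CREBfl/fl (bottom, blue) Tregs. Green points mark intervals below 0, orange points those above 0, triangles regions in that list alone, and black bars gene bodies. At *Tnfrsf9* the intronic region next to the start has an interval below 0 (levels of 49.3 in Foxp3creCREBfl/fl, against 65.5), while that of the main promoter includes 0 (112, against 104).

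*Tnfrsf8* encodes CD30 and lies beside *Tnfrsf1b* on chromosome 4 (145267137 to 145315164, minus strand). It had the most regions, 24, of which 22 were shared and 2 were in the CREBfl/fl list alone (145275428 to 145275528 with 44 fragments and 145302065 to 145302291 with 71). These were mostly weak regions, with a median pileup of 86 in Foxp3creCREBfl/fl Tregs and 136.5 in CREBfl/fl Tregs. The lowest ratio was in an intron 31.5 kb from the start, at 145283453 to 145283917, with 106 fragments, against 254 in CREBfl/fl Tregs. It was -0.68 (-1.02 to -0.35). A region with a half-site at the edge of its window (145299892 to 145300761) had 146 fragments, against 273, and -0.32 (-0.62 to -0.03), and lost its side of 0 on both other scales. The 2 strongest regions were one upstream of the start at 145319207 to 145319786 (288 fragments, against 428 in CREBfl/fl Tregs) and one in an intron at 145286660 to 145287068 (281, against 447), with ratios of 0.01 and -0.09. Of the regions within 1 Mb of *Tnfrsf8* and *Tnfrsf1b* but outside both windows, the 42 shared ones had a median of -0.15. In the CREBfl/fl list, 41 of these 85 were in that list alone (48.2%, 37.9 to 58.7), where 16.4% of all its regions were.

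*Tnfrsf4* and *Tnfrsf18*, whose products OX40 and GITR are costimulatory receptors of activated T cells and Tregs, lie next to each other on chromosome 4 and shared 3 regions of their windows. Together they had 16 joined regions, 12 of them shared, with a median ratio of -0.08. The strongest region of all 120 stood between the genes (156021414 to 156022708), with 863 fragments in Foxp3creCREBfl/fl Tregs and 1460 in CREBfl/fl Tregs, or 170 and 173 times background. Its ratio of -0.18 (-0.30 to -0.06) was small but measured with a narrow interval, and its interval included 0 on both other scales. The *Tnfrsf4* promoter (156013396 to 156014338) was next, with -0.08 (-0.25 to 0.09).

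Behind *Tnfrsf18*, a region at 156031991 to 156032327 had 184 fragments, against 340 in CREBfl/fl Tregs, and a ratio of -0.31 (-0.57 to -0.04), which included 0 without the subtraction of the median. An exonic region near the end of *Tnfrsf18* went the other way. At 156028650 to 156028797 it had 194 fragments in Foxp3creCREBfl/fl Tregs, against 216 in CREBfl/fl Tregs, or 38.1 and 25.6 times background, and a ratio of 0.43 (0.14 to 0.71). The strongest region of the *Tnfrsf18* window after the one between the genes (156033284 to 156034022) had 457 fragments, against 728 in CREBfl/fl Tregs, and a ratio of -0.09. Of the 4 regions in one list alone, 156011836 to 156011930 was in the Foxp3creCREBfl/fl list with 105 fragments. The CREBfl/fl list alone had 156012732 to 156012822 with 128, 156014851 to 156014945 with 109 and 156032838 to 156032921 with 120.

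*Tnfrsf1a* encodes TNFR1, the widely expressed TNF receptor with a death domain, and *Tnfrsf25* encodes DR3, the receptor of TL1A. *Tnfrsf1a* (chr6, 125349362 to 125362484, plus strand) had 15 shared regions with a median of -0.03 and a range of -0.59 to 0.30. Its promoter (125349431 to 125349977) had 281 fragments in Foxp3creCREBfl/fl Tregs, against 410 in CREBfl/fl Tregs, and 0.04 (-0.19 to 0.26), and the next strongest, the intronic region at 125353609 to 125354051, had 267, against 388, and also 0.04. Only a weak intronic region, the one with 3 half-sites (125351430 to 125351545), had an interval below 0, with 55 fragments, against 124, and -0.59 (-1.08 to -0.12). Its interval included 0 without the subtraction of the median. One region of this window, 125364646 to 125364735 at *Plekhg6*, was in the CREBfl/fl list alone, with 36 fragments.

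*Tnfrsf25* (chr4, 152115934 to 152120119, plus strand) had the lowest median of the 9, -0.23 over 9 shared regions. Of these, 8 (88.9%) were below 0, where 50% of all shared regions were. Without the subtraction of the median over all shared regions, the region at this -0.23 had -0.08. That region lies in an intron of the neighbouring gene *Plekhg5*, with 57 fragments in Foxp3creCREBfl/fl Tregs, against 100 in CREBfl/fl Tregs. Of the 9, only the promoter and the region at 152119503 have summits inside *Tnfrsf25*, and the others lie in *Plekhg5* or *Espn*. Within 1 Mb outside the window the median was -0.02 (n = 84). The *Tnfrsf25* promoter (152115753 to 152116487) had 308 fragments in Foxp3creCREBfl/fl Tregs, against 468 in CREBfl/fl Tregs, and -0.02 (-0.24 to 0.19). The 2 regions with an interval below 0 lay at the end of the gene. An exonic region at 152119503 to 152119772 had 119 fragments, against 243 in CREBfl/fl Tregs, and -0.45 (-0.78 to -0.13). The strongest region of the window, at the neighbouring gene *Espn* (152120235 to 152121131), had 335 fragments, against 619, and -0.31 (-0.50 to -0.11), with a half-site in its window. Both included 0 on both other scales. Between them and before them, the CREBfl/fl list alone had 152119988 to 152120079 with 130 fragments and 152117584 to 152117723 with 148, at only 1.6 and 1.99 times their local background.

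*Cd27*, a receptor of naive and memory T cells that binds CD70, and *Fas* were the 2 genes with medians above 0. This depends on the subtraction of the median over all shared regions. Without it, the regions at the medians of *Tnfrsf1a* (0.12), *Tnfrsf18* (0.05) and *Tnfrsf9* (0.02) were also above 0, while that of *Tnfrsf25* was not (-0.08). Likewise above 0 were the 2 middle regions of *Tnfrsf4* (0.07 and 0.14), *Tnfrsf8* (0.06 and 0.06) and *Tnfrsf1b* (0.05 and 0.08). *Cd27* (chr6, 125232622 to 125237010, minus strand, inside an intron of *Vamp1*) had a median of 0.20 over 9 shared regions, against 0.05 within 1 Mb outside the window (n = 140). The region at this 0.20 (125231111 to 125232378) lies within 1 kb of a coding start site of the neighbouring gene *Tapbpl*. The *Cd27* promoter (125236606 to 125237806) had 275 fragments in Foxp3creCREBfl/fl Tregs, against 418 in CREBfl/fl Tregs, and a ratio of -0.02. The highest ratio of all 106 lay at -1.53 kb from its start (125238501 to 125238680), with 113 fragments in Foxp3creCREBfl/fl Tregs, against 116 in CREBfl/fl Tregs, or 22.2 and 13.7 times background. It was 0.54 (0.16 to 0.93). On the other side, at *Tapbpl*, the region at 125230930 to 125231048 had 88 fragments, against 96, and 0.46 (0.02 to 0.89), which included 0 over the local background. The strongest region of the window, at *Vamp1* (125221939 to 125222805), had 578, against 1006, and -0.22 (-0.37 to -0.07), which included 0 without the subtraction of the median. The next (125241579 to 125241923) had 405, against 663, and -0.13. The region at 125234913 to 125235001, inside *Cd27*, was in the Foxp3creCREBfl/fl list alone with 123 fragments.

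*Fas* (chr19, 34290666 to 34327772, plus strand) had 10 shared regions with a median of 0.06 and a range of -0.26 to 0.21. None had an interval below 0, and the promoter described above was the only one above it. The next strongest, in an intron at 34306472 to 34307266, had 222 fragments in Foxp3creCREBfl/fl Tregs, against 341 in CREBfl/fl Tregs, and -0.04. The 3 regions in the CREBfl/fl list alone were intronic and weak: 34292875 to 34293000 with 66 fragments, 34293107 to 34293230 with 65 and 34307987 to 34308098 with 59. A region missing from a list had a signal under the threshold of the caller, and its pileup there is unknown. Across all 9 genes the 14 regions in one list alone had folds over local background of 1.6 to 2.89.

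**Figure D4:**
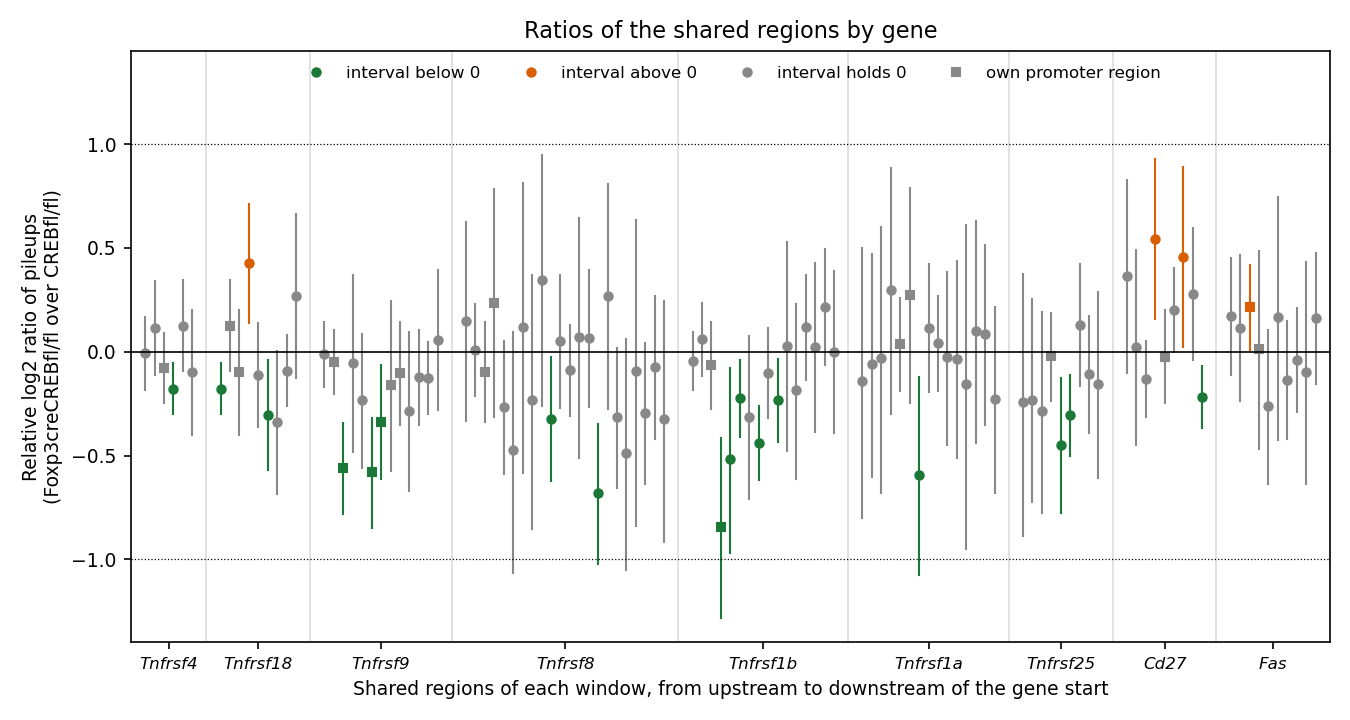
Relative log2 ratio (Foxp3creCREBfl/fl over CREBfl/fl) with its 95% counting interval for every shared region of each gene, ordered along the direction of transcription; squares are regions within 1 kb of a coding start site of the gene. Dotted lines mark 2-fold. No interval lies wholly past 2-fold, and 3 regions shared by *Tnfrsf4* and *Tnfrsf18* appear under both. Green intervals below 0 make up 31.2% at *Tnfrsf1b*, 23.1% at *Tnfrsf9* and 22.2% at both *Tnfrsf18* and *Tnfrsf25*. The share is 7.88% of all shared regions and 13.9% of those at or above the members' median pileup. These are 5, 3, 2 and 2 regions. Only 1 at *Tnfrsf1b* and 2 at *Tnfrsf9* stayed below 0 under every alternative in which they could be compared.

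The CRE of 8 bases was found in none of the 120 windows of 201 bases, where 0.791% of all 104845 had it (0 of 120 allows up to 3.1% by the Wilson interval). The half-site TGACG, searched on both strands, which the CRE also contains, was found in 15 of 120 (12.5%, 7.72 to 19.6), as in 12.2% of all regions. Among the 16 member regions with an interval below 0 it was in 6 (37.5%, 18.5 to 61.4), as in 27.3% of such regions of the whole series. Of these 6, only those in *Tnfrsf9* stayed below 0 under every alternative in which they could be compared. Of the 4 with an interval above 0 none held it, where 11.1% of such regions in the series did. The 13 shared members with a half-site had a median ratio of -0.29, and the 93 without had -0.06. Over all shared regions these medians were -0.05 and 0.01. Not every half-site went with a lower ratio: the *Tnfrsf9* promoter holds one at -0.05, and a region upstream of *Tnfrsf4* (156008202 to 156008904) had a ratio of 0.12.

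**Figure D5:**
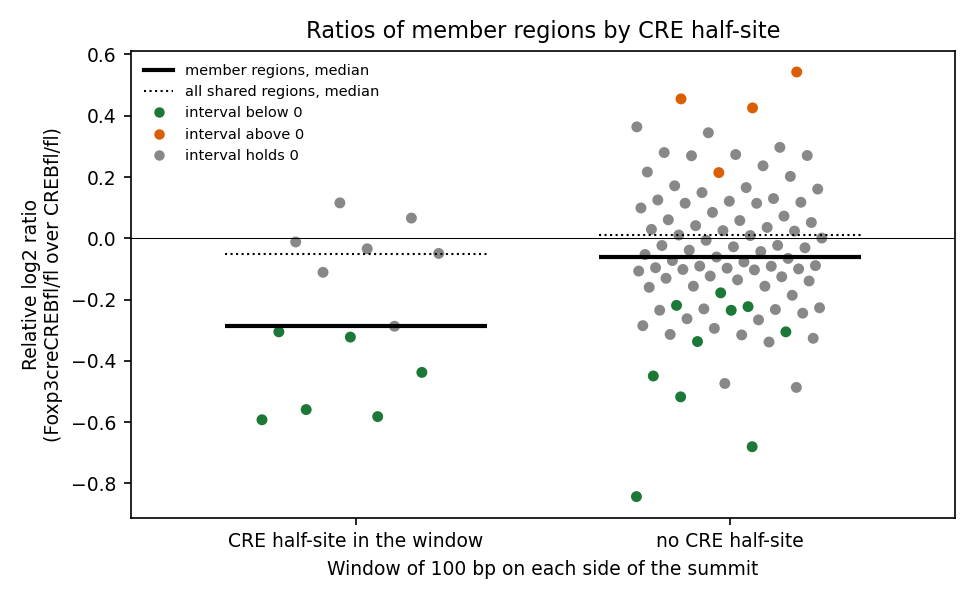
Relative log2 ratio (Foxp3creCREBfl/fl over CREBfl/fl) of the 13 shared member regions with the half-site TGACG in the window and the 93 without. Solid lines are the members' medians (-0.29 and -0.06), dotted lines those of all shared regions (-0.05 and 0.01). The 6 green points on the left are the regions with a half-site and an interval below 0, and the 4 orange points are all on the right. Of these 6, only those in *Tnfrsf9* stayed below 0 under every alternative in which they could be compared.

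Other words in the windows around the summits were near their share in the series. AP-1 (TGAGTCA or TGACTCA) was in 8.33% of member windows and 8.36% of all, the NF-kappa-B consensus in 5.83% and 6.2%, RUNX (TGTGGTT) in 8.33% and 9.87%, forkhead (TGTTTAC) in 1.67% and 3.02%, and ETS (CCGGAA) in 6.67% and 7.33%. In the RefSeq promoters of 300 bases, of which 11 belong to these genes, the half-site was found only at *Tnfrsf25*, while 20.8% of all 32851 promoters hold it. Those of *Tnfrsf9* lie at 150919905 to 150920204 and 150927749 to 150928048, not at its main promoter region (150914186 to 150914876). The *Tnfrsf9* words named next are in the one at 150927749. AP-1 words were found at *Fas*, *Tnfrsf8* and *Tnfrsf9*, or 3 of 11 (27.3%), where 5.2% of all promoters hold one. The NF-kappa-B consensus was in the same number, at *Tnfrsf8*, *Tnfrsf9* and *Tnfrsf25*, where 8.46% of all hold it, and ETS at *Tnfrsf18*, *Tnfrsf1a* and *Tnfrsf1b*, where 14.9% do. With 11 promoters these are small counts, and the CRE, RUNX and forkhead words were in none. A match describes the sequence, and the absence of a match says only that these letters are not in that window.

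The ligands, adaptors and downstream factors of these receptors gave the background of the pathway. Their counts stand beside 7.88% of all shared regions with an interval below 0 and 5.47% above, and beside 6.61% of regions in the Foxp3creCREBfl/fl list alone and 16.4% in the CREBfl/fl list alone. Around 13 ligand genes, 63 shared regions had a median of 0.04, with 6 intervals below 0 (9.52%) and 3 above (4.76%). *Fasl* had 3 of its 7 regions in the CREBfl/fl list alone, the most of this list. Around 13 adaptor and death signaling genes, the 112 compared regions had a median of 0.03, with 6 below (5.36%) and 12 above (10.7%). In the Foxp3creCREBfl/fl list alone were 9.63% of its regions there and in the CREBfl/fl list alone 15.2%. Here the only region of the 4 lists past the rule of 2-fold and 5 SDs was found. It lay in an intron of *Cflar*, whose product restrains caspase-8 (chr1:58733980-58734875), with 292 fragments in Foxp3creCREBfl/fl Tregs, against 218 in CREBfl/fl Tregs, and a ratio of 1.00 (0.74 to 1.26). *Casp8*, which encodes that caspase, had 6 regions in the Foxp3creCREBfl/fl list alone and 3 in the CREBfl/fl list alone, of 18, the most of this list and named for that.

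Around 10 NF-kappa-B genes, 89 compared regions had a median of 0.00 with 8 below (8.99%) and 6 above (6.74%), and *Nfkb1* had 2 regions in the Foxp3creCREBfl/fl list alone and 6 in the CREBfl/fl list alone, of 40. Around 17 other TNF receptor genes, 54 shared regions had a median of -0.02 with 5 below (9.26%) and 3 above (5.56%), and *Tnfrsf26* had 2 regions in the CREBfl/fl list alone and *Cd40* had 1 in each list alone.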

How the data were processed

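Splenic Treg ATAC-seq libraries, 3 per group, were deposited with 1 peak list per group, and how the libraries were joined is not given in the sources used here. The authors trimmed reads with Trim Galore, aligned them with Bowtie2, filtered them with SAMtools and called peaks with MACS2, in versions not given in the sources used here. The deposited values are a score per peak, the fold of the summit pileup over its background as a ratio, and the p-value and q-value as −log10. Read as GRCm38 with GENCODE vM21, no region lay past a chromosome end, and 57.2% (Foxp3creCREBfl/fl) and 57.8% (CREBfl/fl) of 54086 start sites had a region within 1 kb, against 13% and 13.9% after a shift by 100 kb, although the methods name mm9. The methods also name calling without a local background, while only 30% and 32.9% of peaks had the genome background.

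From fold and p the whole-number pileup and its background were recovered to within 0.002 for 99.97% and 99.94% of peaks. Regions were shared when they overlapped by 1 bp. The highest pileup in a joined region was used. Ratios were fitted over all shared regions with Clopper-Pearson 95% intervals, shares have Wilson intervals, and both cover counting error only. Exon, intron and promoter were read at coding genes. Motifs were searched within 100 bp of the CREBfl/fl summit, or of the only summit. They were exact words, except NF-kappa-B, a consensus that allows more than 1 base at some positions. Named are all 9 genes, their promoters, every region in 1 list alone, every interval that excludes 0, the 2 strongest regions of each window and up to 4 genes of each pathway list. The scripts were tested on simulated data (Python 3.11.15, numpy 2.4.6, pandas 2.3.3, scipy 1.17.1, matplotlib 3.10.9). The genes, lists and rules were chosen with earlier results of these data known. Alternatives were 50% reciprocal overlap, a −log10 q of at least 5, windows of 2 and 50 kb, no subtraction of the median, the local background, and summits at most 100 bp apart. One marker gene is not reported here.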

Additional observations from a re-analysis of the deposited data

How the results depend on the processing

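No paired analysis was possible because each group has 1 peak list and its columns carry no replicate numbers, and leaving out a replicate could not be run for the same reason. Of the 7 alternatives, reciprocal overlap of 50% gave 10 regions in the Foxp3creCREBfl/fl list alone instead of 3, since it makes fewer regions count as shared, and windows of 50 kb gave 22 in the CREBfl/fl list alone instead of 11, since they hold more regions. The count past 2-fold and 5 SDs stayed at 0 in all alternatives run. The median ratio of -0.07 was 0.081 without the subtraction of the median and -0.012 over the local background. The *Tnfrsf18* promoter had 0.28 without the subtraction. Over the local background the *Tnfrsf4* promoter had -0.21, the *Fas* promoter 0.11 and the *Tnfrsf1b* region at 145240736 a reversed ratio of 0.15, and the cause was not tested. All 18 regions that could be compared kept their side of 0 with the stricter q and with paired summits, 9 of 20 without the subtraction and 9 of 20 over the local background.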
